A study of Mus musculus with 12 samples.

Results

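The genes described here are 9 members of the YAP pathway and of the CCN family in mouse retina. They are the transcriptional coactivators Yap1 and Wwtr1 (which encodes TAZ), the DNA-binding partner Tead1, the upstream regulators Lats2, Amotl2 and Ajuba, and the target genes Ccn1, Ccn2 and Ankrd1. Members were found by gene symbol, 9 of the 25124 genes listed in each of the deposited tables, and they were chosen by a rule that used their values in these same libraries. Their values are therefore given as a description. Where the fit over all genes called a member, the count is given beside the share of all genes, and it is no evidence about the members. Poly(A) RNA of whole retinas from wild-type (WT) mice was measured in 12 libraries, which form 6 groups of 2. In the single-elevation series, intraocular pressure (IOP) of one eye was raised to 30 mmHg for 1 h in mice of 3 or 18 months, and retinas of the treated eye (3mo IOP, 18mo IOP) and of the untreated contralateral eye (3mo control, 18mo control) were taken on day 2. In the repeated series the same elevation was given 4 times, every other week, to mice that were 3 months old at the first one, and treated retinas (4xIOP) and contralateral retinas (4xIOP control) were taken 2 days after the last. Control eyes came from animals whose other eye had been treated and were not cannulated themselves, so that the procedure and the pressure cannot be told apart. The study calls the libraries of a group biological replicates, but the labels tie no library to an animal. The SDs below measure the spread between these libraries. The standard errors come from the fit, which pools the spread over the groups of a series and moderates it towards that of other genes.

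The Hippo pathway is a kinase cascade that restrains YAP and TAZ. MST kinases (encoded by Stk3 and Stk4) activate the LATS kinases, which phosphorylate YAP and TAZ and keep them in the cytoplasm, whereas in the absence of that signal YAP and TAZ enter the nucleus and activate transcription with TEAD factors. The pathway responds to cell contact and mechanical tension, in the retina YAP is mostly found in Müller glia, and Ccn1 and Ccn2, which encode secreted matricellular proteins (also called Cyr61 and CTGF), are widely used as readouts of its activity.

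On mm10 the counted transcripts of the coactivators and their partner were Yap1 at chr9:7932001-8004596 (minus strand), Wwtr1 at chr3:57455644-57575910 (minus strand; in the repeated series another isoform, chr3:57455644-57575876) and Tead1 at chr7:112679356-112906784 (plus strand). Those of the regulators were Lats2 at chr14:57689662-57746123 (minus strand), Amotl2 at chr9:102717804-102733417 (plus strand) and Ajuba at chr14:54567469-54577661 (minus strand). Those of the targets were Ccn1 at chr3:145646971-145649985 (minus strand), Ccn2 at chr10:24595442-24598682 (plus strand) and Ankrd1 at chr19:36111965-36119844 (minus strand). Reads were counted over all exons of the transcript, untranslated regions included.

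TEAD factors recognise the core sequence CATTCC, and the promoters of the members are shown because this sequence recurred in them. RefSeq promoter windows of build GRCm38.p6 (the assembly of mm10), each running from 250 bases before to 50 bases after a gene's start, were at hand for 7 of the 9 members. CATTCC, read on either strand, lay in a window of all 7 genes, while 14.7% of 32851 windows and 16.6% of 27025 genes with a window held it. Of the companion genes of the pathway described further on, 11 of the 34 with a window (32.4%) held it, but of the YAP and TAZ target genes among them only 2 of 10. Lats2 has a pair of windows, and the match lay in 1 of them, after the start. In the following stretches, written 5′ to 3′ on the strand of the gene, capitals mark CATTCC or its reverse complement GGAATG. For Ccn1 all 250 bases before the start are given, for Lats2 the first 22 transcribed bases, and for the others the match with 30 bases on each side.
Ccn1 (chr3:145649986-145650235, minus strand): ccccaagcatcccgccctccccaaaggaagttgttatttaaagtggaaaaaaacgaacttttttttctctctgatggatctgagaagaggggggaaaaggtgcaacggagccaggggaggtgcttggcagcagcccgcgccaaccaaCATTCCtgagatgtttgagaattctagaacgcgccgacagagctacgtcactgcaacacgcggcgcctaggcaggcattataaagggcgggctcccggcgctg
Yap1 (chr9:8004702-8004767, minus strand): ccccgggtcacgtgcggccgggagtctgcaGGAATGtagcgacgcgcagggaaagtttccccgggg
Wwtr1 (chr3:57576011-57576076, minus strand): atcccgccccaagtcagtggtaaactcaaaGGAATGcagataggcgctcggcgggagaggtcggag
Amotl2 (chr9:102717709-102717774, plus strand): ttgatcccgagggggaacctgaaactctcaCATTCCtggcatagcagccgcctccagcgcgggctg
Ajuba (chr14:54577812-54577877, minus strand): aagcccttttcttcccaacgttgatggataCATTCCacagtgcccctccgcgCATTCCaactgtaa
Ankrd1 (chr19:36120019-36120084, minus strand): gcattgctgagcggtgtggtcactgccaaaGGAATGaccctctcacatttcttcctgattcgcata
Lats2 (chr14:57746102-57746123, minus strand): ccgtGGAATGccaacaatgtag
The match of Ccn1 began 103 bases before its start, that of Yap1 141, that of Amotl2 65, and those of Ajuba 186 and 164. Both windows of Wwtr1, which belong to different starts, share a single match. Ankrd1 had a second match, 123 bases before its start, which is not printed. The AP-1 sequence TGANTCA (7.81% of all windows), the cyclic AMP response element TGACGTCA (1.79%) and the CArG box of serum response factor (1.63%) were found in none of the 7 genes' windows on either strand. These are matches of letters in short windows, and binding was not measured.

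All 12 libraries showed retinal RNA. The summed level of 10 Müller glial markers lay between 913 and 3299 FPKM (fragments per kilobase of transcript, scaled to the mapped tags of the library) and that of 6 ganglion cell markers between 30.3 and 623 FPKM, and none of these markers was at 0 in both libraries of a group. Depth, recovered from the values, lay between 39766237 and 59455055 mapped tags, of which 44.2% to 71.5% fell in exons. The balance of short and long transcripts was uneven: the median FPKM of transcripts under 1000 bases, divided by the median for lengths of 4000 bases or more, was 1.89 and 4.70 in untreated young retinas and 3.26 and 2.99 in young retinas after IOP. In old retinas it was 1.28 and 1.21 untreated and 1.20 and 1.36 after IOP. The 3mo control libraries thus lay at both ends of the young range.

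The levels of the members spanned a wide range, and their order differed between groups. In 3mo control retinas the mean FPKM (± SD, n = 2) was 4.45 ± 1.10 for Lats2, 3.44 ± 0.904 for Amotl2, 2.83 ± 0.620 for Ccn2, 2.06 ± 0.641 for Wwtr1, 1.46 ± 0.555 for Tead1, 1.44 ± 0.296 for Yap1, 0.777 ± 0.0877 for Ccn1 and 0.563 ± 0.0233 for Ajuba. From Lats2 to Yap1 the libraries of each gene overlapped those of the next in this order, and only Ccn1 and Ajuba were separated from the gene above them. In 18mo IOP retinas Ccn1 came first with 218 ± 165 FPKM, followed by Ccn2 (28.7 ± 12.1), Amotl2 (11.3 ± 5.04), Lats2 (8.54 ± 0.390), Wwtr1 (7.18 ± 3.36), Yap1 (4.77 ± 0.141), Tead1 (3.40 ± 0.429) and Ajuba (1.84 ± 0.315). In that group Amotl2 overlapped with Lats2, Lats2 with Wwtr1 and Wwtr1 with Yap1, while the other neighbours in this order were separated. The FPKM ratio of Ccn1 to Ccn2 was 0.299 and 0.257 in young controls and 0.757 and 0.249 after IOP, then 5.71 and 3.11 in old controls and 5.02 and 8.96 after IOP. The ratio was thus separated between the ages and overlapped between treated and untreated eyes of either age.

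**Figure D1:**
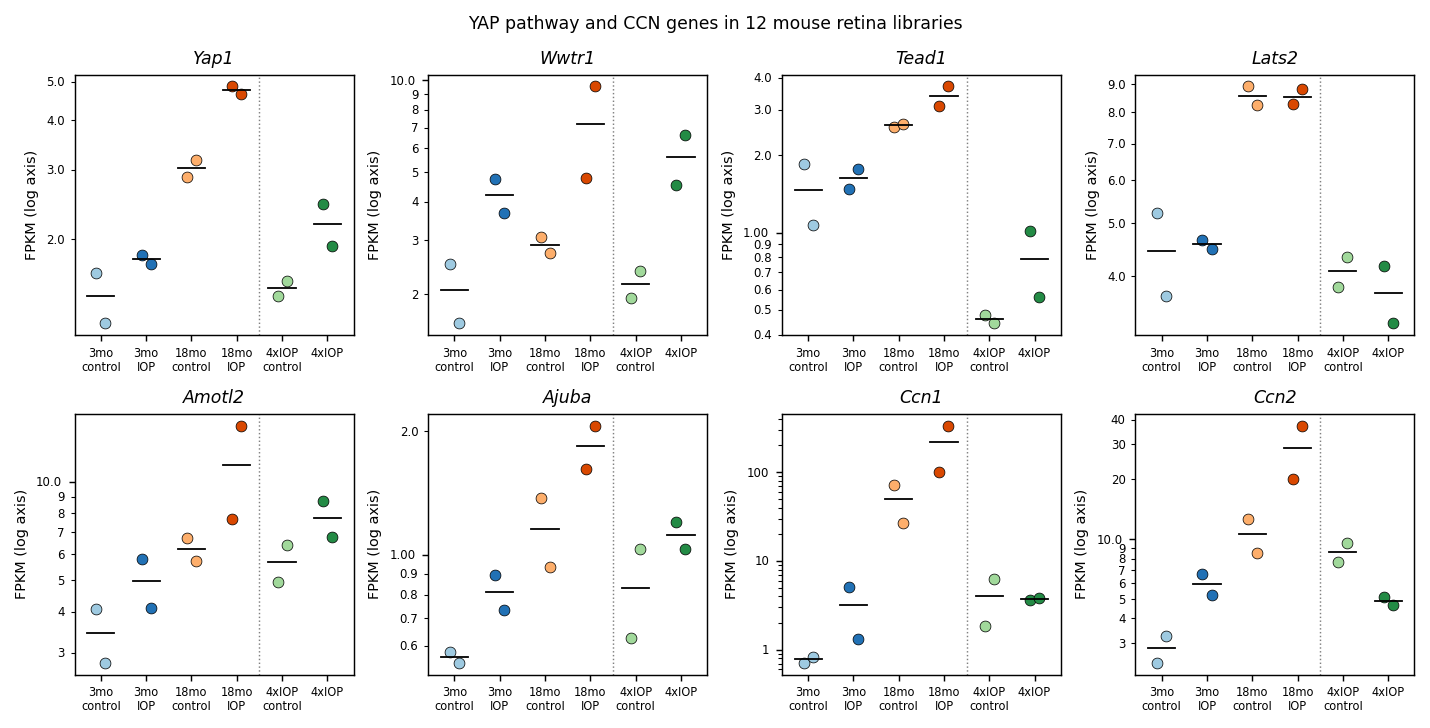
FPKM (log axis, a separate range for each gene) of the 8 members above the limit of measurement in each of 12 retina libraries, with a point for each library and a line at the group mean; a dotted line separates the single-elevation from the repeated series, which were tabulated separately. Ccn1 runs from 0.715 to 334 FPKM. Both 18mo control libraries lie above both 3mo control libraries for all 8 genes, as for 45.7% of the 13731 genes fitted.

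Ankrd1, which encodes a nuclear ankyrin-repeat protein induced by YAP in many cell types, was at the limit of measurement. It was listed at 0 in both 3mo control, both 3mo IOP and both 4xIOP control libraries, in 18mo control replicate 2 and in 4xIOP replicate 2. The other 4 libraries held 6 reads (18mo control replicate 1, 0.078 FPKM), 1 read (18mo IOP replicate 1, 0.010 FPKM), 13 reads (18mo IOP replicate 2, 0.125 FPKM) and 7 reads (4xIOP replicate 1, 0.071 FPKM). A count of 0 allowed up to 0.0430 FPKM (3 reads, counting error only) in the shallowest of these libraries. Ankrd1 did not reach the mean of 0.5 FPKM required for a fit, and no fold change is given for it, which left 8 of the 9 members.

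The first comparison asked how untreated retinas of 18 months differed from those of 3 months. All 8 fitted members were higher in both 18mo control libraries than in both 3mo control libraries, a pattern seen in 45.7% of the 13731 genes fitted. Differences were estimated with limma on log2(FPKM + 0.5). Called genes had a Benjamini-Hochberg adjusted p no higher than 0.05 and differed by at least 1 on the log2 scale. On these criteria Ccn1 and Ccn2, 2 of the 8, were called, against 23.2% of all genes fitted. Since these values chose the members, nothing is read from the counts. The median log2 fold change was 0.83 over the 8 members and 0.16 over all fitted genes.

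Among the coactivators, Yap1 had 1.65 and 1.23 FPKM at 3 months against 2.87 and 3.18 at 18 months, a log2 fold change of 0.87 ± 0.19 (± SE here and below). Wwtr1 changed less, from 2.51 and 1.60 to 3.07 and 2.72 FPKM (0.43 ± 0.32), and the 95% interval of its difference, from -0.30 to 1.16, contained 0. Tead1, which carries YAP and TAZ to DNA, went from 1.85 and 1.07 to 2.58 and 2.64 FPKM (0.70 ± 0.24). In each of the 3 genes the lowest of these 4 libraries was 3mo control replicate 2.

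Of the regulators, Lats2, the kinase that phosphorylates YAP and TAZ and is itself a YAP target, went from 5.22 and 3.67 to 8.92 and 8.24 FPKM (0.89 ± 0.19). Amotl2, an angiomotin that holds YAP at cell junctions, had 4.07 and 2.80 FPKM at 3 months and 6.74 and 5.71 at 18 months (0.79 ± 0.32). Ajuba, a LIM protein that binds and inhibits LATS kinases, had 0.579 and 0.546 FPKM at 3 months and 1.37 and 0.936 at 18 months (0.63 ± 0.23). The kinase and both proteins that act on the pathway upstream thus stood higher at 18 months, at less than 1 on the log2 scale each.

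The targets differed most. Ccn1 had 0.715 and 0.839 FPKM in 3mo control retinas and 72.4 and 26.5 FPKM in 18mo control retinas, so that the means stood 63.7-fold apart (log2 fold change 5.12 ± 0.70). The counts behind these values were 60 and 81 reads at 3 months and 6417 and 2505 reads at 18 months. Counting error was small against the 2.74-fold difference between the 18mo control libraries themselves. Without 18mo control replicate 1 the log2 fold change of Ccn1 was 4.40, and without replicate 2 it was 5.84. Ccn2 had 2.39 and 3.27 FPKM at 3 months and 12.7 and 8.53 FPKM at 18 months (1.72 ± 0.32). For Ccn1 and Ccn2 alike, 18mo control replicate 1 was the higher library.

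Marker genes of several cell types moved along with age. All 9 endothelial markers were called higher, with a summed level of 12.2 to 15.7 FPKM in 3mo control and 74.9 to 80.5 FPKM in 18mo control libraries, as were 6 of 10 Müller glial markers (913 to 1232 against 1777 to 2089 FPKM) and 4 of 10 markers of pericytes and smooth muscle (10.7 to 11.8 against 39.6 to 43.6 FPKM). Of 7 markers of microglia and leukocytes 4 were called higher (10.1 to 22.1 against 27.2 to 31.5 FPKM). Lower at 18 months were 7 of 8 markers of the pigment epithelium (174 to 182 against 2.67 to 9.97 FPKM) and 5 of 6 ganglion cell markers (309 to 623 against 32.8 to 74.7 FPKM). All 4 fitted lens genes were lower in both libraries, with none called (10.8 to 16.8 against 2.92 to 4.26 FPKM). Of 4 astrocyte markers Aldh1l1 was called higher and S100b lower, and of 5 blood markers 1, Alas2, was called higher, with overlapping sums in both lists. No gene of these lists was at 0 in both libraries of either group. Their part in the values of the members was not tested, and in bulk tissue fewer cells of a type and less RNA per cell cannot be told apart. Once each library's trend with transcript length was removed, the log2 fold change was 0.61 for Yap1, 0.11 for Wwtr1, 0.24 for Tead1, 0.53 for Lats2, 0.52 for Amotl2 and 0.43 for Ajuba. Leaving out 3mo control replicate 2 gave 0.17 for Wwtr1 and 0.40 for Tead1, and leaving out the other young control added Yap1 and Lats2 to the called members.

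The second comparison asked how a single elevation altered young retinas. Of the 8 fitted members, 6 were higher in both 3mo IOP libraries than in both 3mo control libraries (28.6% of all genes fitted), Tead1 and Lats2 overlapped, and no member was called (0.575% of all genes). At an unadjusted p under 0.05 there were 2 members and 1169 of all 13731 genes, and voom on the recovered reads also called 0 members. The median log2 fold change was 0.39 over the members and 0.13 over all genes.

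Wwtr1 had 4.74 and 3.68 FPKM in 3mo IOP retinas against 2.51 and 1.60 in controls (log2 fold change 0.90 ± 0.32), and Yap1 had 1.83 and 1.73 against 1.65 and 1.23 FPKM (0.24 ± 0.19). The FPKM ratio of Wwtr1 to Yap1 was 2.59 and 2.12 after IOP and 1.53 and 1.31 in controls, so it was higher in both treated libraries. Tead1 (0.14 ± 0.24) and Lats2 (0.06 ± 0.19) differed by less than their standard errors, and both turned negative without 3mo control replicate 2 or with median-of-ratios size factors. Without that library Yap1 was at 0.09 and Amotl2 at 0.24, and with median-of-ratios size factors Yap1 was at 0.10 and Amotl2 at 0.31. Amotl2 had 5.82 and 4.12 against 4.07 and 2.80 FPKM (0.48 ± 0.32), and Ajuba had 0.891 and 0.735 against 0.579 and 0.546 FPKM (0.30 ± 0.23).

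Of the targets, Ccn2 had 6.66 and 5.24 FPKM against 2.39 and 3.27 (0.96 ± 0.32). Ccn1 had 5.04 and 1.31 FPKM against 0.715 and 0.839 (1.31 ± 0.70), and its treated libraries were themselves 3.86-fold apart. Without 3mo IOP replicate 1 the log2 fold change of Ccn1 was 0.50, and without replicate 2 it was 2.12. The same library carried the most Acta2, a smooth muscle actin, with 46.04 FPKM against 16.8 in 3mo IOP replicate 2 and 2.25 and 1.67 in controls. The 10 markers of pericytes and smooth muscle, 2 of them called higher, summed to 45.2 to 102.5 FPKM after IOP against 10.7 to 11.8. Acta2 and Tagln (39.4 and 14.8 against 2.06 and 2.29 FPKM) carried most of that sum. All 7 fitted markers of the list had a positive log2 fold change, with a median of 0.46. Over 6 fibroblast markers, of which 1 was called higher, the sum was 16.7 to 55.4 against 4.19 to 5.50 FPKM. Of 4 astrocyte markers 1, Gfap, was called higher (24.97 and 31.3 against 2.13 and 2.10 FPKM), and of 8 pigment epithelium markers 1 was (summed level 198 to 487 against 174 to 182 FPKM). Only 3 of the 7 fitted pigment epithelium markers had a positive log2 fold change, with a median of -0.05. The 7 markers of microglia and leukocytes summed to 32.4 to 58.0 against 10.1 to 22.1 FPKM and the 9 endothelial markers to 15.8 to 19.7 against 12.2 to 15.7 FPKM, with none called. Their part in the values of the members was not tested.

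The third comparison was the same elevation at 18 months. Of the 8 fitted members, 7 were higher in both 18mo IOP libraries than in both 18mo control libraries (36.5% of all genes fitted), with Lats2 overlapping, and no member was called (0.124% of all genes). An unadjusted p under 0.05 was found for 5 members and for 1297 of all 13731 genes, and voom called 0 members. The median log2 fold change was 0.66 over the members and 0.09 over all genes.

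Yap1 had 4.87 and 4.67 FPKM in 18mo IOP retinas against 2.87 and 3.18 in controls (0.58 ± 0.19), with the smallest standard error of the 8 members. Wwtr1 had 4.80 and 9.55 FPKM against 3.07 and 2.72 (1.11 ± 0.32), and Tead1 had 3.10 and 3.71 against 2.58 and 2.64 (0.32 ± 0.24). The ratio of Wwtr1 to Yap1 overlapped, with 0.987 and 2.05 after IOP and 1.07 and 0.856 in controls. Lats2 had 8.27 and 8.82 FPKM against 8.92 and 8.24, a difference of -0.01 ± 0.19 with a 95% interval from -0.45 to 0.44. The kinase overlapped between treated and untreated eyes, whereas the coactivators and their partner stood higher in both treated libraries. Amotl2 had 7.71 and 14.8 FPKM against 6.74 and 5.71 (0.74 ± 0.32), and Ajuba had 1.62 and 2.06 against 1.37 and 0.936 (0.51 ± 0.23).

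Ccn1 reached 101 and 334 FPKM in 18mo IOP retinas, from 72.4 and 26.5 in controls (2.06 ± 0.70). Ccn2 had 20.2 and 37.3 FPKM against 12.7 and 8.53 (1.36 ± 0.32). In all fitted members but Yap1 the higher treated library was 18mo IOP replicate 2. Without it the log2 fold changes were 1.20 for Ccn1, 0.92 for Ccn2, 0.65 for Wwtr1, 0.29 for Amotl2 and 0.21 for Tead1, and without 18mo IOP replicate 1 they were 2.91, 1.79, 1.57, 1.19 and 0.43. Without 18mo control replicate 2 they were 1.34 for Ccn1 and 0.31 for Ajuba. Gfap, a filament protein of reactive glia, was likewise highest there, with 87.5 FPKM against 31.4 in replicate 1 and 4.87 and 4.39 in controls. The 10 Müller glial markers summed to 3023 to 3299 FPKM after IOP and 1777 to 2089 in controls, with none called. Without Clu, which alone had 1149 and 1718 against 456 and 477 FPKM, the sums of the other 9 overlapped (1581 to 1875 against 1300 to 1633 FPKM). By gene, all 10 had a positive log2 fold change, with a median of 0.57. Of these, 7 were higher in both treated libraries (36.5% of all genes fitted). Astrocyte markers summed to 43.3 to 103 FPKM against 10.8 to 11.6, and 1 of them, Gfap, was called higher. Of the other lists reported here, 5 had sums that did not overlap, with no gene of them called: endothelium (103 to 109 against 74.9 to 80.5 FPKM), pericytes and smooth muscle (44.7 to 56.4 against 39.6 to 43.6 FPKM), microglia and leukocytes (41.7 to 77.2 against 27.2 to 31.5 FPKM), lens (5.75 to 20.4 against 2.92 to 4.26 FPKM) and, lower after IOP, blood (44.3 to 54.3 against 166 to 426 FPKM). The part of these cell types in the values of the members was not tested.

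**Figure D2:**
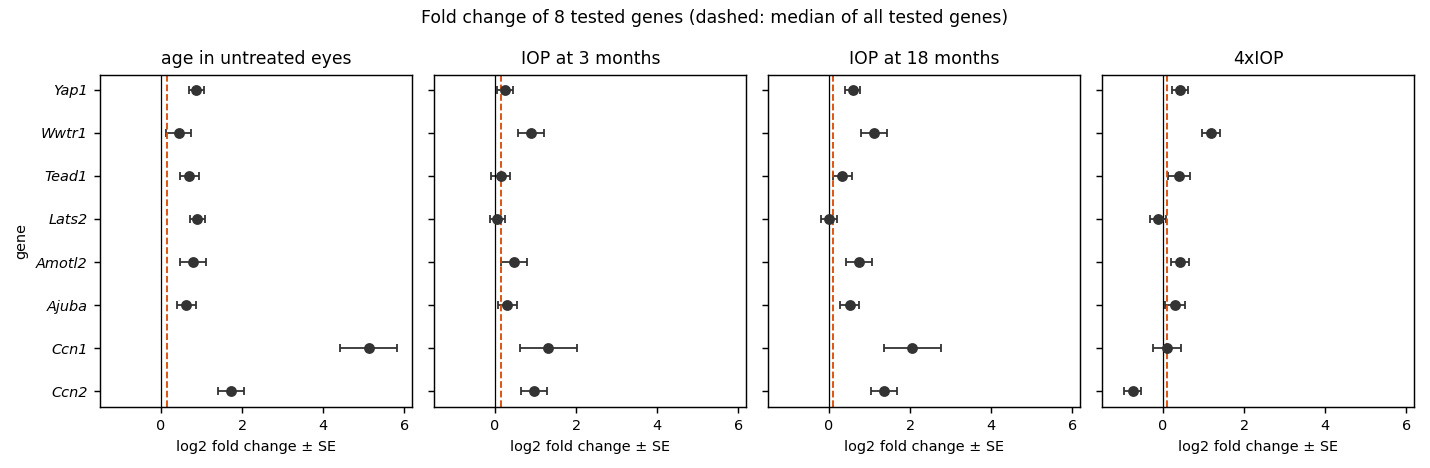
Log2 fold change (points, with SE as bars) of 8 members in 4 comparisons, estimated by limma on log2(FPKM + 0.5); the solid line is 0 and the dashed line the median of all fitted genes. Ccn1 has the largest value in the 3 comparisons of the single-elevation series (5.12, 1.31 and 2.06) and lies at 0.09 after repeated elevation, where Ccn2 is at -0.75 and Wwtr1 at 1.18.

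Whether the response to IOP differed between the ages was estimated as an interaction in the same fit. The difference of the log2 fold changes (18 minus 3 months) was 0.75 ± 0.99 for Ccn1, 0.40 ± 0.45 for Ccn2, 0.34 ± 0.26 for Yap1, 0.26 ± 0.45 for Amotl2, 0.21 ± 0.45 for Wwtr1, 0.20 ± 0.32 for Ajuba, 0.18 ± 0.33 for Tead1 and -0.06 ± 0.27 for Lats2. Each 95% interval contained 0, and for Ccn1 it ran from -1.53 to 3.03. When each of the 8 libraries was left out in turn, the sign held throughout for Yap1 and Ajuba and turned at least once for the other 6. Without 18mo IOP replicate 2 the difference was -0.11 for Ccn1, -0.04 for Ccn2, -0.25 for Wwtr1 and -0.19 for Amotl2. Without 3mo control replicate 1 it was -0.05 for Wwtr1 and -0.11 for Tead1, without 3mo IOP replicate 2 it was -0.06 for Ccn1, and without 3mo control replicate 2 it was 0.17 for Lats2. No gene of the whole table was called in this contrast, where 218 genes of 13731 had an unadjusted p under 0.05 and voom called 0. The age comparison and each IOP comparison share control libraries, so their values are set side by side here and are not correlated with each other.

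The fourth comparison was repeated elevation in the animals that were young at the first one. The members divided here. Yap1, Wwtr1, Tead1 and Amotl2 were higher in both 4xIOP libraries than in both controls (27.7% of all 13718 genes fitted), Ccn2 was lower in both, and Ccn1, Lats2 and Ajuba overlapped. Wwtr1 was called, 1 of 8 against 6.15% of all genes, and voom also called 1 member. The median log2 fold change was 0.35 over the members and 0.10 over all genes.

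Wwtr1 had 4.54 and 6.65 FPKM in 4xIOP retinas against 1.94 and 2.37 in controls (1.18 ± 0.22), and Yap1 had 2.46 and 1.92 against 1.44 and 1.57 (0.42 ± 0.21). The ratio of Wwtr1 to Yap1 was higher in both treated libraries (1.85 and 3.46) than in controls (1.34 and 1.51), as after single elevation at 3 months but not at 18 months. The repeated series counted Wwtr1 on another RefSeq transcript (NM_133784) than the single-elevation series (NM_001168281), so its levels are compared within a series only. Tead1 had 1.01 and 0.562 against 0.479 and 0.443 FPKM (0.40 ± 0.27), and Amotl2 had 8.73 and 6.80 against 4.93 and 6.41 FPKM (0.42 ± 0.22). Lats2 had 4.17 and 3.27 against 3.82 and 4.34 FPKM (-0.12 ± 0.20), and Ajuba had 1.20 and 1.03 against 0.626 and 1.04 FPKM (0.30 ± 0.24). These smaller differences rested on single libraries. Without 4xIOP replicate 1 the log2 fold change was 0.14 for Tead1, 0.27 for Yap1 and 0.25 for Amotl2, without 4xIOP control replicate 1 it was 0.07 for Ajuba and 0.25 for Amotl2, and without 4xIOP replicate 2 Lats2 turned positive (0.03).

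In this series the coactivators were higher in both treated libraries, whereas Ccn1 overlapped and Ccn2 was lower in both. The difference between targets and coactivators was not tested, and the 95% interval of Yap1, from -0.04 to 0.87, contained 0. Ccn2 had 5.11 and 4.68 FPKM in 4xIOP retinas against 7.71 and 9.57 in controls. Its log2 fold change of -0.75 ± 0.21 was opposite in sign to both single elevations. Levels had been 2.39 and 3.27 FPKM in 3mo control and 6.66 and 5.24 in 3mo IOP retinas. The series thus differed in their control levels of Ccn2. Ccn1 had 3.67 and 3.84 FPKM against 1.87 and 6.22 (0.09 ± 0.36), so the control libraries enclosed the treated ones. Without 4xIOP control replicate 1 its log2 fold change was -0.66 and without replicate 2 it was 0.85. Without 4xIOP replicate 2 Wwtr1 was no longer called, at a log2 fold change of 0.93. All 5 fitted lens genes of a list of 7 were called higher (summed level 47.8 to 110 against 0.578 to 4.58 FPKM, with Mip at 0 in both controls), as were 7 of 7 markers of microglia and leukocytes (74.9 to 75.1 against 4.82 to 5.74 FPKM), and 2 of 4 astrocyte markers (48.2 to 56.5 against 7.97 to 8.52 FPKM) and 2 of 9 endothelial markers (68.3 to 70.1 against 33.5 to 40.8 FPKM). Of 8 pigment epithelium markers 3 were fitted and all 3 were called lower (3.41 to 6.70 against 25.3 to 33.9 FPKM). Of 10 Müller glial markers 1 was called higher and 1 lower, and their sums overlapped (997.5 to 1124 against 1085 to 1127 FPKM). Without Clu the other 9 summed to 614 to 747 against 957 to 989 FPKM, where Glul alone had 249 and 292 against 579 and 592. By gene, 6 of the 10 were higher in both 4xIOP libraries (27.7% of all genes fitted) and 3 lower in both. The median log2 fold change of the 10 was 0.44. Markers of pericytes and smooth muscle (19.3 to 20.9 against 14.1 to 16.4 FPKM) and of fibroblasts (3.14 to 4.10 against 1.79 to 2.34 FPKM) summed higher as well, with none called. The part of these cell types in the values of the members was not tested.

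Other genes of the pathway were examined in lists written from general knowledge, with calls adjusted over all genes fitted. Of 48 such companion genes, 34 were fitted in the single-elevation series and 36 in the repeated series. With age 7 rose and 0 fell (20.6% of 34, against 23.2% of all genes called in either direction), and their median log2 fold change was 0.72. After IOP 1 rose at 3 months (2.94% of 34, against 0.575% of all genes). At 18 months 0 were called, against 0.124% of all genes, with 12 of 34 companion genes and 1297 of all 13731 genes at an unadjusted p under 0.05, and voom also called 0 companion genes. After repeated elevation 2 rose and 2 fell (11.1% of 36, against 6.15% of all genes).

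Of the TEAD and VGLL factors, 7 listed and 3 fitted, Tead3 rose with age. It had 3.76 and 2.16 FPKM in 3mo control and 11.7 and 12.02 in 18mo control retinas (log2 fold change 1.88 ± 0.28, limma adjusted p = 0.00522). By FPKM it was the most abundant TEAD gene in each of the 12 libraries, and Tead4 did not exceed 0.116 FPKM in any. After IOP Tead3 had 5.65 and 5.84 FPKM at 3 months and 16.1 and 25.7 at 18 months, and it was not called. Tead2 in 18mo IOP retinas had 4.09 and 4.31 FPKM against 2.50 and 2.24, which did not pass (0.71 ± 0.20, limma adjusted p = 0.212).

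Of the Hippo kinases and regulators, 2 of 19 fitted rose with age, against 23.2% of all genes called in either direction. Nf2, which encodes merlin, an activator of LATS kinases, had 12.3 and 7.34 against 19.6 and 21.6 FPKM (1.07 ± 0.23, limma adjusted p = 0.0104). Taok3, a kinase upstream of MST, was the other, with 27.8 and 16.5 against 48.6 and 41.0 FPKM (1.04 ± 0.24, limma adjusted p = 0.0125), and it is named although the rule stopped at 6 genes. The core kinases did not pass the fold threshold: Stk3 had 10.5 and 9.83 against 6.79 and 6.88 FPKM (-0.54 ± 0.16), Stk4 had 7.56 and 6.58 against 6.12 and 5.92 FPKM (-0.21 ± 0.16), and Lats1 had 8.55 and 6.03 against 14.2 and 12.7 FPKM (0.86 ± 0.21). None of these 19 genes was called after a single elevation at either age. After repeated elevation Taok3 fell, from 10.1 and 13.3 to 5.35 and 5.22 FPKM (-1.06 ± 0.22, limma adjusted p = 0.00696), and it was not called when any of 3 of the 4 libraries was left out.

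Of the other YAP and TAZ target genes, 4 of 11 fitted rose with age, against 23.2% of all genes called in either direction. They were Axl, a receptor tyrosine kinase (1.62 ± 0.21, limma adjusted p = 0.00484), Tgfb2, which encodes a transforming growth factor (1.49 ± 0.20, adjusted p = 0.00484), Arhgef17, a guanine nucleotide exchange factor (1.41 ± 0.32, adjusted p = 0.0112), and Myof, which encodes myoferlin (1.18 ± 0.25, adjusted p = 0.00925). Axl was also the gene called after IOP at 3 months, with 4.08 and 3.17 FPKM against 1.29 and 0.921 (1.36 ± 0.21, limma adjusted p = 0.0372). At 18 months it had 9.91 and 11.7 against 4.01 and 4.85 FPKM, which did not pass (1.19 ± 0.21, limma adjusted p = 0.0985). After repeated elevation Axl rose from 1.30 and 1.47 to 5.81 and 6.35 FPKM (1.80 ± 0.19, limma adjusted p = 3.59e-05) and Myof from 0.974 and 0.804 to 3.94 and 4.59 FPKM (1.78 ± 0.20, limma adjusted p = 6.5e-05). Nt5e, which encodes the ecto-nucleotidase CD73, fell from 32.9 and 37.5 to 11.3 and 15.5 FPKM (-1.37 ± 0.26, limma adjusted p = 0.00375), and was not called without either control library.

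The CCN family has 4 further genes. Of these, Ccn3, Ccn5 and Ccn6 stayed at or below 0.217 FPKM in all 12 libraries and were not fitted. Ccn4 had 13.2 and 7.56 FPKM in young controls and 8.99 and 7.30 after IOP, then 7.67 and 6.22 in old controls and 3.04 and 4.29 after IOP. Its log2 fold change was -0.50 ± 0.28 with age, -0.29 ± 0.28 after IOP at 3 months, -0.85 ± 0.28 after IOP at 18 months and -0.77 ± 0.21 after repeated elevation, where its limma adjusted p of 0.039 passed but the fold did not, and none was called. The values of Ccn4 were thus negative in all 4 comparisons, while that of Ccn2 was negative after repeated elevation (-0.75) and positive in the others, and the difference between the genes was not tested.

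**Figure D3:**
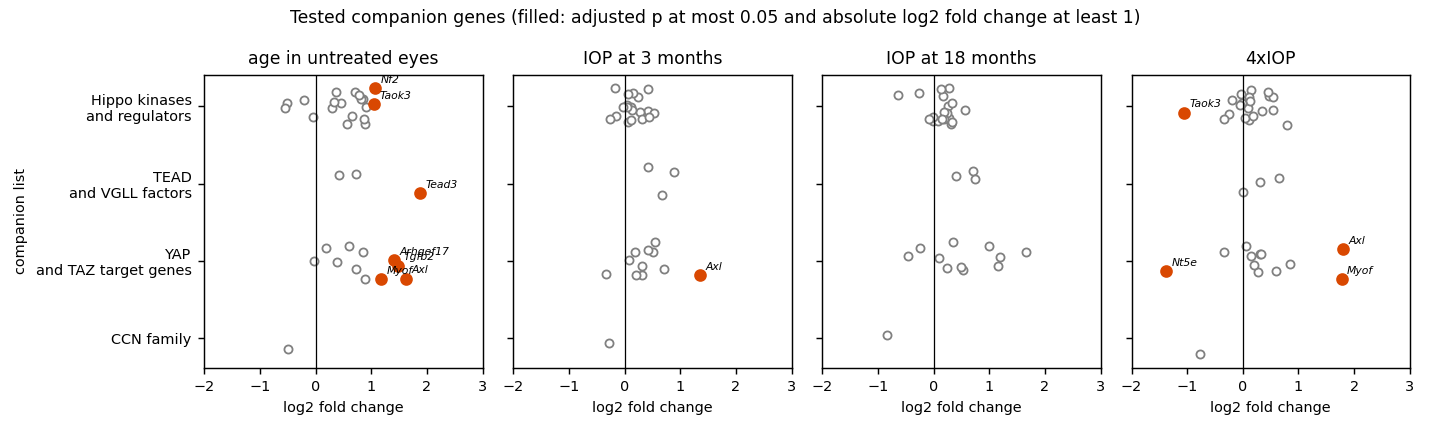
Log2 fold change of the fitted companion genes (points, scattered vertically within each list for visibility) by list and comparison; filled, named points passed an adjusted p of at most 0.05 and differed by at least 1 on the log2 scale. With age 7 genes rose, after IOP 1 at 3 months and 0 at 18 months, and after repeated elevation 2 rose and 2 fell.

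The companion counts depended on single libraries. With age 14 genes were called when 3mo control replicate 1 was left out, and 3 when either 3mo control replicate 2 or 18mo control replicate 2 was. The length trend also mattered, since 4 genes were called once it was removed, and Arhgef17, Myof, Nf2 and Taok3 were then not among them. Axl was not called at 3 months with median-of-ratios size factors, without a filter on low values, by voom, with a block for same-numbered libraries, or when only the 2 groups were fitted.

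The genes most like Ccn1, Ccn2 and Yap1 across the 8 single-elevation libraries were named by Pearson's r of log2(FPKM + 0.5) over 13731 genes, as a description. The libraries come from 4 groups, so any gene that differed between these groups in like manner scores high. For Ccn1 they were Pip5k1a (r = 0.993), Fosb (0.991), Brap (0.991), Tm7sf3 (0.990) and Ppp1r15a (0.990). Fosb, which encodes an AP-1 subunit and is an immediate early gene, had 0.577 and 0.190 FPKM in young controls and 1.45 and 1.09 after IOP, then 29.1 and 12.9 in old controls and 37.7 and 101 after IOP. It shared with Ccn1 the higher value in 18mo control replicate 1 and in 18mo IOP replicate 2. Ppp1r15a, a regulator of the integrated stress response, ran from 3.53 to 57.2 FPKM, and Pip5k1a only from 8.01 to 14.2 FPKM.

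For Ccn2 the genes were Gadd45g (r = 0.996), Gsap (0.994), Atf3 (0.993), Adamts1 (0.992) and Crip2 (0.991). Atf3, a stress-induced transcription factor, ran from 2.25 to 59.9 FPKM and Adamts1, a secreted metalloprotease, from 1.00 to 69.2 FPKM over the 8 libraries. In the repeated series these genes parted from Ccn2. Atf3 had 15.3 and 19.9 FPKM in 4xIOP retinas against 3.78 and 2.71, and Adamts1 had 15.2 and 15.4 against 3.74 and 5.32, both higher in both treated libraries while Ccn2 was lower. For Yap1 the genes were Myo1e (r = 0.999), Abat (0.996), Chst2 (0.996), Prex1 (0.995) and Tox (0.995). The names depended on the setting. With the length trend removed, 2 of the 5 genes remained for each of the 3 members, and with a pseudocount of 0.1 or 1 from 3 to 5 remained. By ranks 0 remained for Ccn1 and Ccn2 and 1 for Yap1, but there all 5 genes listed for each member tied at a coefficient of 1. Among the members themselves, r over the same 8 libraries was highest for Ccn2 with Ajuba (0.987) and Ccn1 with Ajuba (0.972), and lowest for Wwtr1 with Lats2 (0.502).

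**Figure D4:**
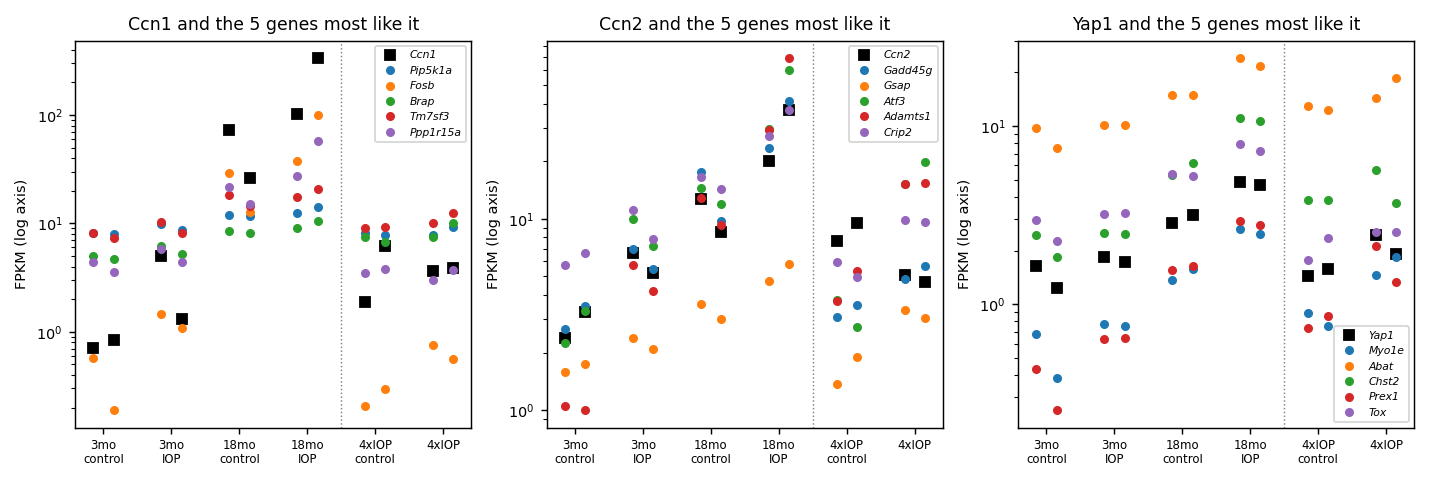
FPKM (log axis) of Ccn1, Ccn2 and Yap1 (black squares) and of the 5 genes most like each (coloured circles) in 12 libraries, the likeness having been measured over the 8 libraries left of the dotted line. Left of the line Fosb follows Ccn1 from 0.190 to 101 FPKM, and right of it Atf3 and Adamts1 are higher in 4xIOP than in control retinas while Ccn2 is lower.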

How the data were processed

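Poly(A) RNA was extracted with TRIzol from whole retinas and sequenced as strand-specific libraries. Per the submitters' processing notes, the tools were STAR 2.7.8a, HOMER and DESeq2 with genome build mm10. The study's methods give the version of DESeq2 as 1.24.0. HOMER gave the FPKM that the authors deposited, counted in exons of a single transcript per gene, in a separate table for each series, and replicates were not pooled. Because FPKM times length is a whole number of reads per mapped tag, depth was recovered from the values, and 100% of those checked came within 0.1 of a whole read. In simulated libraries of 25124 genes the largest error of that depth was 3.4e-05%.

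Fitted genes averaged 0.5 FPKM or more over a table. The values log2(FPKM + 0.5), a scale that understates the change of low genes, were analysed in limma 3.58.1 under R 4.3.3 (lmFit, then eBayes with a mean-variance trend), with the 8 single-elevation libraries as 4 groups and the 4 repeated-elevation libraries alone, and Benjamini-Hochberg adjustment over all fitted genes. The fit was tested on simulated data. The members, the companion and marker lists and the alternatives were chosen with earlier results of these data known. Named were all members, up to 6 called companion genes per comparison by absolute log2 fold change, companion genes with a stated role, marker genes, and the 5 genes most like Ccn1, Ccn2 and Yap1. Counting limits cover counting error only, at 3 reads for a value of 0. Promoter sequences are from RefSeq. Lats2 shares exon sequence with another annotated gene of the same strand, and Ccn2 and Yap1 with genes of the opposite strand. Alternatives were pseudocounts of 0.1 and 1, no filter, a filter at 2 FPKM, eBayes without a trend, median-of-ratios size factors, removal of the length trend (splines with 5 degrees of freedom), voom on recovered reads, calls by adjusted p only, fits of just the groups compared, a replicate block, and leaving out each library. The photoreceptor marker list is not reported here.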

Additional observations from a re-analysis of the deposited data

Results flagged for a closer look

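Ccn2 was higher in both treated libraries than in both controls after single elevation and lower in both after repeated elevation, and it was called in none of the 3 comparisons. Its log2 fold change was 0.96 after IOP at 3 months, 1.36 after IOP at 18 months and -0.75 after repeated elevation. In control libraries Ccn2 had 2.39 and 3.27 FPKM at 3 months, 12.7 and 8.53 at 18 months, and 7.71 and 9.57 in the repeated series. The 2 series were tabulated separately and share no library, and the difference between them was not tested.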

How the results depend on the processing

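Counts of called genes follow, first those moved most. With age, 7 companion genes were called, 19 on the adjusted p alone, 4 with the length trend removed, and 3 to 14 when a library was left out, and in the other alternatives 5 (median-of-ratios size factors) to 10 (voom). The 2 members called became 5 on the adjusted p alone, 4 with voom and 3 with a pseudocount of 0.1, and 2 to 4 when a library was left out. After IOP at 3 months, the 1 companion gene called became 0 with median-of-ratios size factors, without a filter, with the replicate block, with voom and with only the 2 groups compared, and 0 to 1 when a library was left out. After IOP at 18 months, 0 companion genes became 0 to 1 (F3, without 18mo IOP replicate 1). After repeated elevation, the 4 companion genes became 2 to 3 and the 1 member 0 to 1 when a library was left out, voom called 5 companion genes, and the member count was 2 on the adjusted p alone and 0 without a filter. Libraries with the same number did not deviate together (correlations of deviations from group means of -0.275, -0.530 and -0.290). With the replicate block 0 members were called at 3 months, 0 at 18 months and 1 after repeated elevation. Pairing unlike numbers, chosen after seeing the data, called 1, 3 and 4 companion genes and 0, 2 and 1 members in the 3 comparisons. Median-of-ratios size factors moved the median log2 fold change of all genes from 0.16 to 0.01 with age, from 0.13 to -0.04 after IOP at 3 months, from 0.09 to -0.02 at 18 months and from 0.10 to -0.01 after repeated elevation. No called count changed direction. With 2 libraries per group, the SE of a single gene is uncertain, and Ankrd1 was too low to fit.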
